A study of Mus musculus with 6 samples.

Results

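Astrocyte marker genes were examined in RNA from whole mouse brain, as a group of 10 genes out of the 55450 listed in the deposited tables. They were chosen by symbol, as genes widely used to recognise astrocytes, and comprised the reactive marker Gfap and 9 homeostatic genes, namely Aqp4, Slc1a2, Slc1a3, Aldh1l1, Aldoc, S100b, Gja1, Glul and Sox9. Each symbol matched 1 Ensembl gene of the GENCODE M21 annotation of the mouse assembly GRCm38, and all 10 passed the filter on low counts. The study sequenced long RNA of brain from TRMT1L KO animals, which lack a protein related to a tRNA methyltransferase, and from WT animals, with 3 biological replicates in each group. The labels give no strain, allele, age, sex, litter or batch for either group, so these limits of the model cannot be described further.

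Astrocytes are the glial cells that clear neurotransmitter and potassium from around synapses, supply neurons with metabolites and wrap blood vessels with their endfeet. Most of the homeostatic genes encode the proteins that do this work. After injury or in disease astrocytes become reactive, a state in which the intermediate filament protein GFAP typically accumulates, so that Gfap and the homeostatic genes can be read against each other. Several of the genes are not limited to astrocytes. Glul and S100b are also made by oligodendrocytes, Aldoc by Purkinje cells, and Sox9 by ependymal and choroid plexus cells.

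Counts in genes ranged from 31201119 to 36145961 per library. Levels are in CPM, meaning counts set to a common library total with the TMM factors of edgeR, which lay between 0.984 and 1.01. Trmt1l, the targeted gene, averaged 34.4 CPM in WT and 2.87 CPM in KO, and all 6 libraries lay on the side of their genotype label. The quasi-likelihood test of edgeR, with Benjamini-Hochberg adjustment over the 21237 genes tested, gave 2 genes under an adjusted p-value of 0.05, Trmt1l and an unspliced feature in its intron. The labels do not say that the replicates of a group came from separate litters or preparations. The p-values therefore set each group difference against the spread between these libraries alone.

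All 10 astrocyte markers were well measured in every library. Together the 10 genes held between 0.622% and 0.661% of the counts in genes, and the least abundant member, Sox9, still had at least 830 counts in each library. Slc1a2 alone supplied between 51.5% and 54.9% of the counts of the 10 genes. Whole brain contains all other cell types as well, and in such bulk RNA fewer cells of a type and less RNA per cell cannot be told apart.

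None of the 10 astrocyte marker genes passed the threshold between KO and WT once genes with low counts were left out. In edgeR the count was 0 of 10 after adjustment over all genes tested, where 0.00942% of all genes passed, and it was also 0 with the DESeq2 Wald test, which gave Sox9 no adjusted p-value, and with limma-voom. It was 1 with edgeR without a filter on low counts, where Gfap passed (adjusted p = 1.13e-14), as did 0.8% of all genes. The highest edgeR adjusted p for Gfap under any alternative was 0.861. The log2 fold change of Gfap was 0.45 with and without the filter, while its SE was 0.0524 without the filter and 0.191 with it. Without adjustment 3 of the 10 had a p-value under 0.05 in edgeR, against 7.92% of all genes, and they were Aldh1l1 and Gfap, with higher means in KO, and Aqp4, with a lower mean in KO. With 1 library left out this count lay between 1, without WT library 3, and 4, without KO library 1 or KO library 2. It was 2 with the DESeq2 Wald test and with limma-voom, and 4 with the replicate number as a block. KO and WT libraries were fully separated for 2 of the 10 genes, against 14.4% of all genes. They were Aldh1l1, higher in KO as were 7.46% of all genes, and Aqp4, lower in KO as were 6.97%. Log2 fold changes of KO over WT were positive for 5 members, as for 50.1% of all genes, and negative for 5, with a median of -0.0061, beside a median of 0.00013 over all genes tested. Without WT library 3 the split was 7 and 3 with a median of 0.0095, without WT library 2 it was 4 and 6 with a median of -0.013, and without KO library 2 it was 4 and 6 with a median of -0.016. The split stayed 5 and 5 without KO library 1 or 3, with medians of -0.014 and 0.00033.

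**Figure D1:**
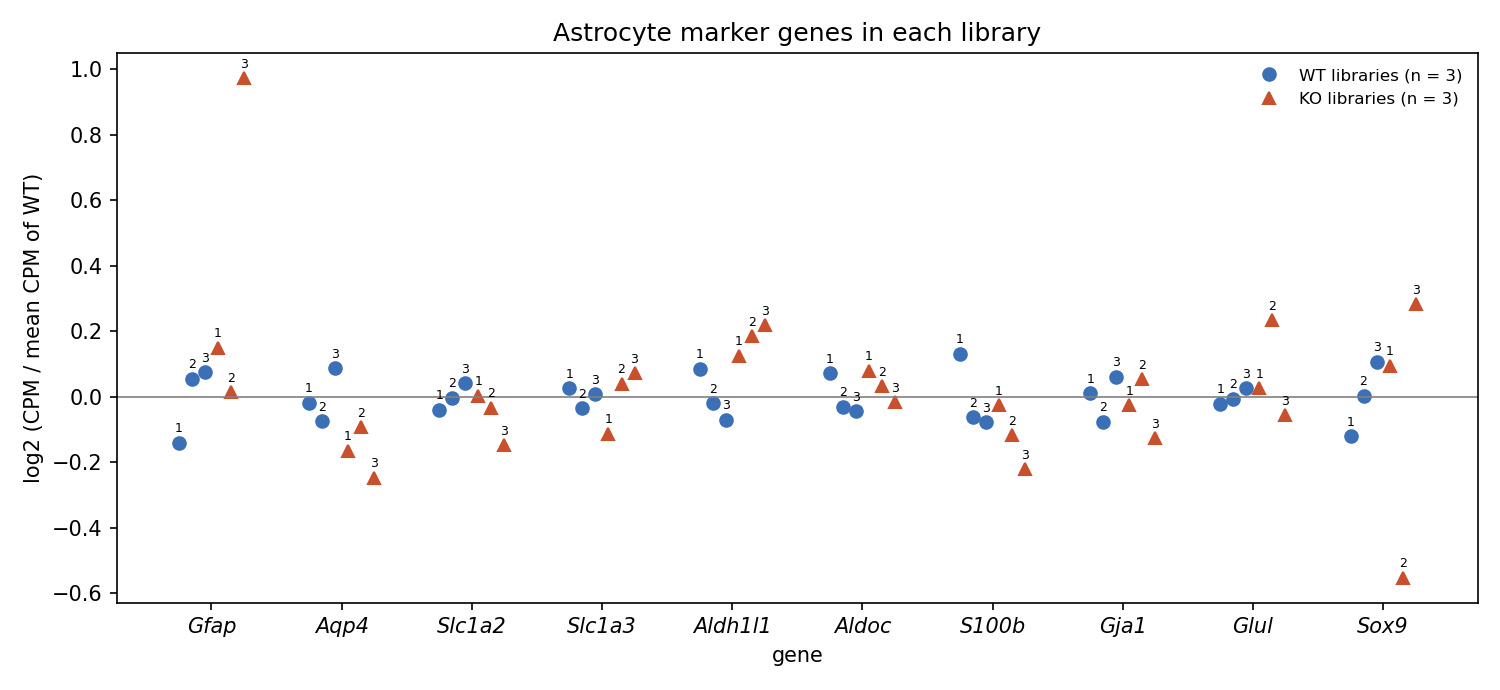
Abundance of each of the 10 genes in each library, as log2 of its CPM over the mean CPM of the 3 WT libraries (y axis), by gene (x axis); circles are WT libraries, triangles are KO libraries, and the small digits are replicate numbers. Gfap stands near 1 in KO library 3 and Sox9 is lowest in KO library 2, while the other genes stay closer to the WT mean.

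Gfap (ENSMUSG00000020932.14, chromosome 11 from 102887336 to 102900912, minus strand) encodes the main intermediate filament of astrocytes. Its abundance was 115, 131 and 133 CPM in WT libraries 1 to 3 and 140, 128 and 248 CPM in KO libraries 1 to 3. KO library 3 thus stood far above the other 5 libraries, which lay together, and KO library 2 lay within the WT range, so the groups overlapped. WT libraries averaged 126 ± 10.2 CPM and KO libraries 172 ± 66.1 CPM (SD, n = 3 each). The log2 fold change was 0.45 (SE 0.191, 95% interval 0.028 to 0.86), and the edgeR p-value was 0.0384 before and 0.622 after adjustment. When KO library 3 was left out, the Gfap value was 0.085 on the log2 scale (SE 0.0711; edgeR adjusted p = 0.796), and without WT library 1 or KO library 2 it was 0.38 and 0.62.

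The promoter of Gfap is shown because Stat3, the transcription factor that drives Gfap in reactive astrocytes, was among the measured genes of the reactive programme. Promoter windows from 250 bases before to 50 bases after the RefSeq transcription start in GRCm38.p6 were present for 8 of the 10 members. The STAT motif TTCNNNGAA, which reads the same on both strands, was matched in windows of 3 members, Gfap, Slc1a3 and the second window of Aldoc, which held 2 matches. Of all 32851 windows of this length 8.30% held a match. The windows of Gfap (chr11:102897151-102897450, minus strand) and Slc1a3 (chr15:8710758-8711057, minus strand) are given with the match in capitals, and that of Aldh1l1 (chr6:90550543-90550842, plus strand) as a window without one.
Gfap: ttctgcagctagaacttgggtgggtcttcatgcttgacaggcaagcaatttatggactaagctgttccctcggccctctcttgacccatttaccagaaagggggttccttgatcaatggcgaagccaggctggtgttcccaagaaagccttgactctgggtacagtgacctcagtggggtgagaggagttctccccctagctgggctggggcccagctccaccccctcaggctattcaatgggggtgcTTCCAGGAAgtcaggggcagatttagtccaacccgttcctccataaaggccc
Slc1a3: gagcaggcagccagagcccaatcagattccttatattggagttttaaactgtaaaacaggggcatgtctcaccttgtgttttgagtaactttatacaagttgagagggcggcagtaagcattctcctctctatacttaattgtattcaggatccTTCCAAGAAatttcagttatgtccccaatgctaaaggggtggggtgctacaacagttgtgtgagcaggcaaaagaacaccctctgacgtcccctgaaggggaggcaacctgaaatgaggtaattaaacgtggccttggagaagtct
Aldh1l1: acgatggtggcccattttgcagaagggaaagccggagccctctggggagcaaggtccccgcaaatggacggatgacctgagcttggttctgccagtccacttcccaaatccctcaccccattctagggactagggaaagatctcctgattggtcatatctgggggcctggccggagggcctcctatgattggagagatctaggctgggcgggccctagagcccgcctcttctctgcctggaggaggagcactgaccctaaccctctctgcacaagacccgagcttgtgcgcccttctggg
The match in Gfap, TTCCAGGAA, begins 2 bases before the start site and that in Slc1a3, TTCCAAGAA, begins 96 bases before it. A match of these letters is a description of the sequence and not a measurement of binding.

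Gfap was next set against each homeostatic gene within the same library, a ratio of counts in which depth and scaling cancel. In KO library 3 the ratio was the highest of the 6 libraries for all 9 homeostatic genes. Summed over the 9 homeostatic genes, Gfap amounted to 1.82%, 2.08% and 2.05% of their CPM in WT libraries 1 to 3 and to 2.20%, 1.97% and 4.16% in KO libraries 1 to 3. For this share KO library 2 lay within the WT range and KO library 1 above it. Against Aldh1l1, a folate enzyme found in astrocytes across the brain, the ratio of Gfap counts was 2.04, 2.52 and 2.64 in WT and 2.43, 2.12 and 4.03 in KO. The mean difference of the log2 ratio was 0.20 (two-sided exact permutation test, p = 0.7, where 0.1 is the smallest value 3 against 3 libraries allow), and it was -0.071 without KO library 3. Aldh1l1 gave the smallest difference of the 9 homeostatic genes and itself had a higher mean in KO. For the other 8 the difference, which was not tested, lay between 0.31 for Glul and 0.55 for Aqp4. Without KO library 3 it was positive for 7 of the 9, up to 0.21 for Aqp4 and 0.31 for Sox9, and -0.044 for Glul. The ratio to Sox9 was the exception in which the groups did not overlap, at 1.79, 1.86 and 1.77 on the log2 scale in WT and 1.86, 2.37 and 2.496 in KO. In KO library 2 that ratio combined a usual Gfap level with a low Sox9 level.

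**Figure D2:**
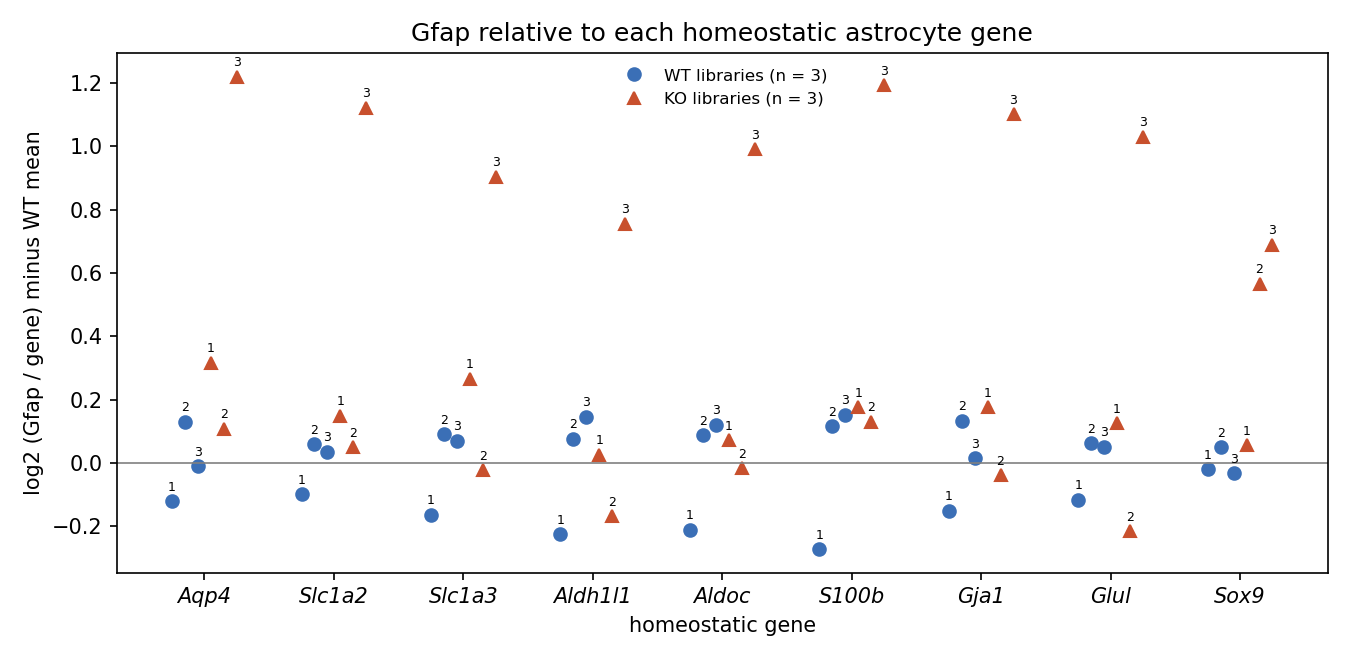
Log2 ratio of Gfap counts to the counts of each homeostatic gene, minus the mean of the WT libraries (y axis), by homeostatic gene (x axis); circles are WT and triangles KO libraries with their replicate numbers. KO library 3 is highest for all 9 genes, and KO library 2 stands next to it only in the ratio to Sox9.

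The channel genes of the astrocyte surface were Aqp4 and Gja1. Aqp4 (ENSMUSG00000024411.10, chromosome 18 from 15389496 to 15410982, minus strand) encodes the water channel of the endfeet. Its abundance was 205, 197 and 221 CPM in WT and 185, 195 and 175 CPM in KO. All 3 KO libraries lay below all 3 WT libraries, although KO library 2 and WT library 2 were close. WT libraries averaged 208 ± 11.9 CPM and KO libraries 185 ± 9.87 CPM (SD, n = 3), a log2 fold change of -0.17 (SE 0.0544, 95% interval -0.29 to -0.047; edgeR unadjusted p = 0.0103, adjusted p = 0.576). The value of Aqp4 ranged from -0.21, without KO library 2, to -0.12, without WT library 3, over the alternatives. Gja1 (ENSMUSG00000050953.10, chromosome 10 from 56377330 to 56402513), which encodes the gap junction protein connexin 43, had 190, 178 and 196 CPM in WT and 185, 195 and 172 CPM in KO. These ranges overlapped almost completely, and the log2 fold change of Gja1 was -0.031 (95% interval -0.15 to 0.089).

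The genes of glutamate uptake and conversion were among the most abundant members. Slc1a2 (ENSMUSG00000005089.15, chromosome 2 from 102658659 to 102790784) encodes GLT-1, the main glutamate transporter of the forebrain. Its abundance was 3443, 3532 and 3643 CPM in WT and 3546, 3458 and 3196 CPM in KO. KO library 3 was the lowest of the 6, and KO libraries 1 and 2 lay within the WT range. Slc1a3 (ENSMUSG00000005360.14, chromosome 15 from 8634124 to 8710764) encodes GLAST, the related transporter that is prominent in Bergmann glia of the cerebellum. It had 530, 509 and 524 CPM in WT and 482, 535 and 547 CPM in KO, with KO libraries on both sides of the WT range.

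The log2 fold change was -0.058 for Slc1a2 (95% interval -0.15 to 0.037) and 0.0018 for Slc1a3 (95% interval -0.11 to 0.11). Over the alternatives the value of Slc1a2 ranged from -0.091, without KO library 1, to -0.015, without KO library 3. The ratio of Slc1a2 to Slc1a3 counts was 6.49, 6.95 and 6.96 in WT and 7.36, 6.46 and 5.84 in KO, so the highest and the lowest ratio were both in KO libraries. Glul (ENSMUSG00000026473.15, chromosome 1 from 153899944 to 153909723) encodes glutamine synthetase, which turns the glutamate taken up into glutamine. Its abundance was 1075, 1087 and 1111 CPM in WT and 1111, 1282 and 1050 CPM in KO. KO library 2 was the highest and KO library 3 the lowest of the 6 libraries. The log2 fold change of Glul was 0.073 (95% interval -0.062 to 0.21), and it was -0.014 without KO library 2.

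The metabolic genes were Aldoc and Aldh1l1. Aldoc (ENSMUSG00000017390.15, chromosome 11 from 78322968 to 78327781) encodes the glycolytic enzyme aldolase C. It had 651, 606 and 601 CPM in WT and 655, 634 and 613 CPM in KO, the smallest spread of the 10 genes, with a highest library 1.09-fold above the lowest. Its log2 fold change was 0.033 (95% interval -0.064 to 0.13), and it ranged from 0.0073, without KO library 1, to 0.071, without WT library 1, over the alternatives. Aldh1l1 (ENSMUSG00000030088.15, chromosome 6 from 90486427 to 90600203) encodes a folate-metabolising dehydrogenase that is widely used as a general astrocyte marker. Its abundance was 56.1, 52.2 and 50.4 CPM in WT and 57.7, 60.1 and 61.5 CPM in KO. All KO libraries lay above all WT libraries, with the gap between WT library 1 and KO library 1 the narrowest.

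Aldh1l1 averaged 52.9 ± 2.92 CPM over the WT and 59.8 ± 1.94 CPM over the KO libraries (SD, n = 3). The log2 fold change was 0.18 (SE 0.0560, 95% interval 0.054 to 0.30; edgeR unadjusted p = 0.00883, adjusted p = 0.576), and it ranged from 0.14, without WT library 3, to 0.22, without WT library 1, over the alternatives. Aldh1l1 and Aqp4 therefore showed differences of like size and opposite sign, neither past the threshold.

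S100b (ENSMUSG00000033208.7, chromosome 10 from 76253853 to 76261159) encodes a calcium-binding protein of astrocytes and of some oligodendrocytes. Its abundance was 130, 113 and 112 CPM in WT and 116, 109 and 102 CPM in KO. WT library 1 was the highest, KO library 3 the lowest, and KO library 1 lay within the WT range. The log2 fold change was -0.12 (95% interval -0.26 to 0.026; edgeR unadjusted p = 0.0987, adjusted p = 0.682), and without WT library 1 it was -0.048. Markers of oligodendrocytes had the same sign. Of 15 such genes 14 had lower means in KO, 3 of them with an unadjusted p-value under 0.05 where 3.38% of all genes were lower at that level, and 0 passed the adjusted threshold in edgeR. With the DESeq2 Wald test 2 of the 15 passed, beside 0.122% of all genes, and with edgeR without a filter on low counts 2 did, beside 0.8%. The 0.122% is over all 21237 genes, including any that, like Sox9, got no adjusted p-value from the DESeq2 test. With 1 library left out, the number lower at an unadjusted p-value under 0.05 lay between 2, without WT library 1 or KO library 3, and 9, without KO library 1, and was 6 without WT library 3. The median log2 fold change was -0.157 with all libraries, -0.069 without WT library 1, where 12 of the 15 had lower means, and -0.092 without KO library 2. Their summed level ranged from 4396 to 4842 CPM in WT and from 3779 to 4515 CPM in KO, and none of them was at 0. WT library 1 was the highest and KO library 3 the lowest in that sum, as they were for S100b. The part of oligodendrocyte RNA in the S100b values was not tested.

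Sox9 (ENSMUSG00000000567.5, chromosome 11 from 112782224 to 112787760) encodes the transcription factor that initiates and maintains the astrocyte programme. Its abundance was 33.3, 36.2 and 38.9 CPM in WT and 38.6, 24.7 and 44.0 CPM in KO. KO library 2 was the lowest and KO library 3 the highest of the 6 libraries, so the KO group spanned more than the WT group on both sides. The log2 fold change was -0.014 (95% interval -0.36 to 0.33). Sox9 had no stable direction, since its value was -0.19 without KO library 3 and 0.19 without KO library 2.

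**Figure D3:**
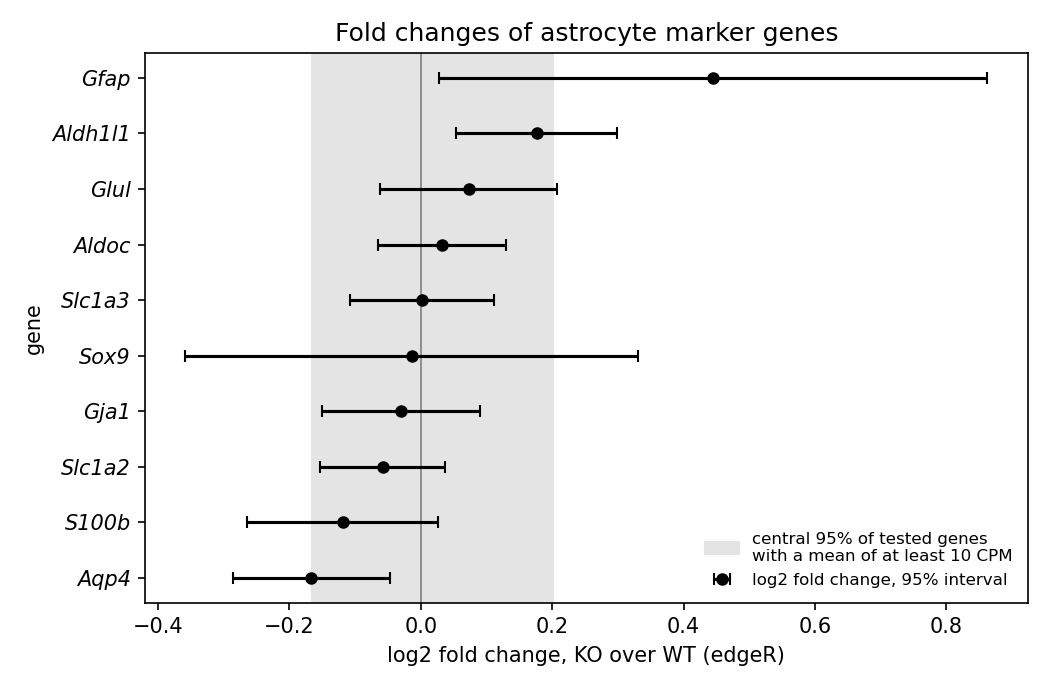
Log2 fold change of KO over WT for the 10 genes (x axis), with bars for the unadjusted 95% interval from edgeR, ordered by size (y axis); the shaded band holds the central 95% of fold changes of tested genes with a mean of at least 10 CPM, from -0.17 to 0.20. Gfap lies beyond the band with the widest interval, and Aqp4 lies at its lower edge.

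The members differed in how much they varied between libraries. The biological coefficient of variation estimated by edgeR, which is the spread between libraries beyond counting noise, was 16.4% for Gfap and 13.6% for Sox9. It lay between 4.84% for Aldoc and 6.31% for S100b for the other 8 genes. The median over the 10646 tested genes with a mean of at least 10 CPM was 5.69%, and 99.5% of these genes had a lower value than Gfap and 99.1% a lower value than Sox9. The highest library exceeded the lowest by 2.16-fold for Gfap and by 1.78-fold for Sox9, beside a median of 1.16-fold. By this ratio 75.3% of genes had a smaller value than Aldh1l1, 75.6% than Glul, 84.1% than Aqp4 and 86.2% than S100b, and it includes any difference between the groups. The spreads of Gfap and Sox9 each rested largely on 1 library. The standard error of the log2 fold change fell from 0.191 to 0.0711 for Gfap without KO library 3 and from 0.157 to 0.0791 for Sox9 without KO library 2.

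Levels of different genes were compared as CPM per kb of the union of the exons of each gene. In WT the order was Glul at 328 ± 5.59, Slc1a2 at 270 ± 7.63, Aldoc at 190 ± 8.45, S100b at 79.7 ± 6.58, Slc1a3 at 61.0 ± 1.30, Aqp4 at 33.3 ± 1.91, Gfap at 30.0 ± 2.41, Gja1 at 18.3 ± 0.881, Aldh1l1 at 11.7 ± 0.647 and Sox9 at 8.74 ± 0.686 CPM per kb (SD, n = 3). The level of Glul was 37.6 times that of Sox9. Of the 9 pairs of neighbours in this order, the ranges over all 6 libraries overlapped for 1, Aqp4 and Gfap. In KO these exchanged places, with Gfap at 40.8 ± 15.7 and Aqp4 at 29.7 ± 1.58 CPM per kb, and all other ranks were the same. The order depends on the length used. With the longest annotated transcript in place of the union of exons, 6 of 10 genes kept their rank, Slc1a3 moved above S100b and Gja1 above Gfap and Aqp4.

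**Figure D4:**
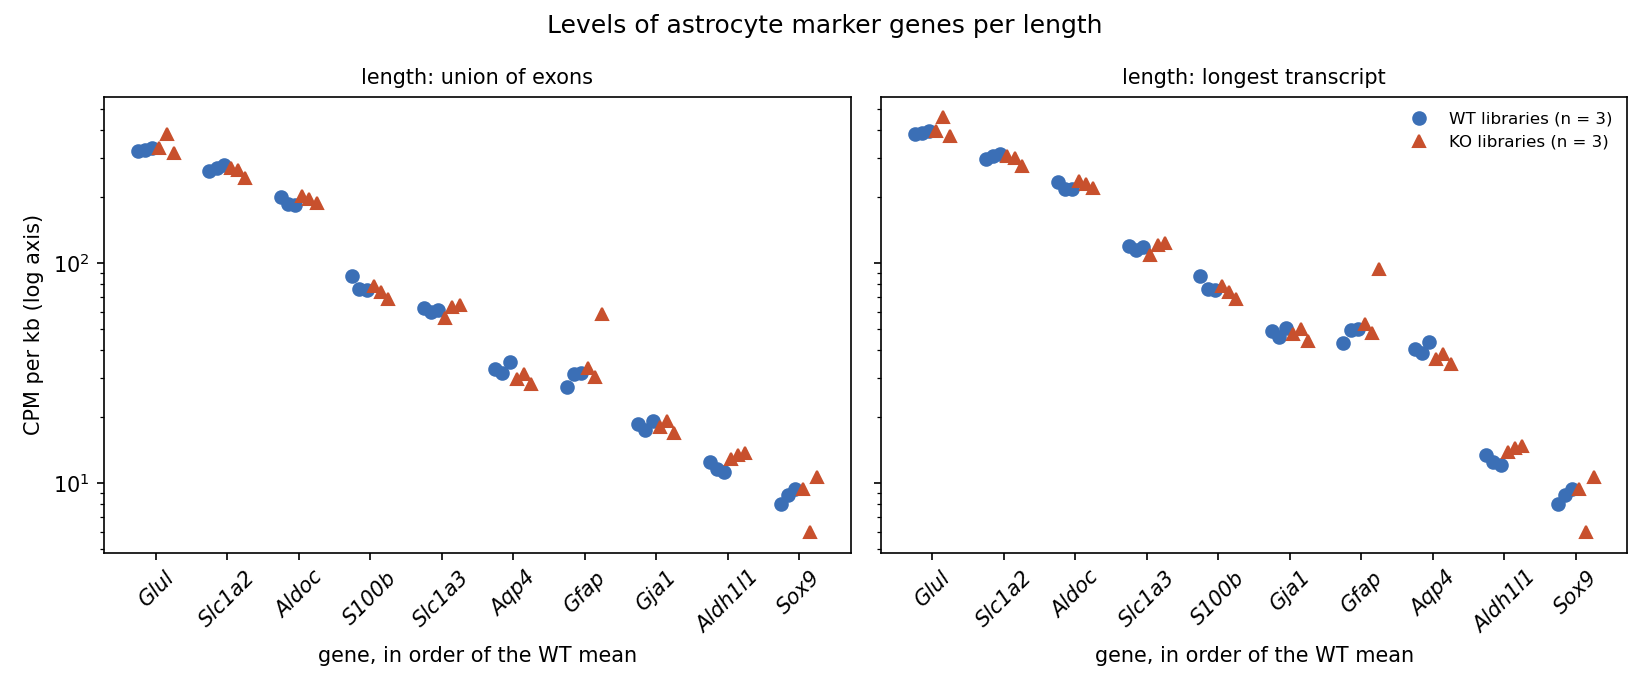
CPM per kb (y axis, log scale) of the 10 genes in each library, ordered by the WT mean (x axis), with the length taken as the union of exons (left) or the longest annotated transcript (right); circles are WT and triangles KO libraries. Glul, Slc1a2 and Aldoc lead in both panels, and Gfap in KO library 3, at 58.8 on the left, stands apart from its other libraries.

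Gene structure gave little room for reads of other genes in these counts. Counts on the strand opposite to each member amounted to at most 1.06% of its own counts in any library, reached by S100b. Dip2a overlaps S100b on the other strand, with 0 bases shared between exons. Exons of opposite-strand features overlap those of Aldh1l1 by 499 bases (Gm15756), Slc1a2 by 189 (Gm13872) and Glul by 116 (Teddm2). Same-strand features overlap an exon of 2 members, by 105 bases for Aldh1l1 (Gm45901) and by 93 bases for Glul (Mir8114), and reads there that fall in both genes are left out of the counts.

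The wider set of astrocyte genes was also divided between both signs. Of 40 other astrocyte-enriched genes, all tested, 22 had higher and 18 lower means in KO, with a median log2 fold change of 0.014. In edgeR 0 passed the adjusted threshold, and 3 did without a filter on low counts, beside 0.8% of all genes. With 1 library left out the median lay between -0.0077, without KO library 2, and 0.036, without KO library 3. Without adjustment 7 were higher and 2 lower at a p-value under 0.05, where 4.54% of all genes were higher and 3.38% lower. With 1 library left out the number higher lay between 4, without KO library 1, and 9, without KO library 3. Their summed level ranged from 8154 to 8334 CPM in WT and from 8330 to 8517 CPM in KO.

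The 4 genes of this set with the smallest p-values and no overlap were Rorb, Apoe, Acsbg1 and Slc27a1. Rorb, a nuclear receptor that is also made by cortical layer neurons, had 96.2, 101 and 103 CPM in WT and 86.7, 85.6 and 89.6 CPM in KO, a log2 fold change of -0.20 (edgeR adjusted p = 0.576). Apoe, the main lipid carrier of brain, had 552, 508 and 586 CPM in WT and 609, 609 and 683 CPM in KO, a log2 fold change of 0.21. Acsbg1 and Slc27a1, both of fatty acid activation and uptake, had log2 fold changes of 0.18 and 0.17. Each of these 4 had an edgeR adjusted p-value of 0.576.

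Genes of the reactive programme were examined beside Gfap. Of 34 listed genes 29 passed the filter, and the other 5, Timp1, Clcf1, Tgm1, Ptx3 and Slc10a6, had at most 11 counts in any library. The 29 include filament partners of Gfap, secreted acute-phase proteins and the regulator Stat3. Of them 19 had higher and 10 lower means in KO, with a median log2 fold change of 0.091. In edgeR 0 passed the adjusted threshold and 2 had an unadjusted p-value under 0.05, both higher in KO (6.90% of the 29), where 4.54% of all genes were higher at that level. With 1 library left out, between 1 and 7 were higher at that level, with 1 higher and 1 lower without WT library 1, 5 higher without KO library 1 and 7 without KO library 2. With no filter on low counts 3 of 33 passed the adjusted threshold in edgeR, beside 0.8% of all genes. The median was 0.156 without WT library 2, 0.156 without KO library 1 and 0.024 without KO library 3, where 16 of the 29 had higher means. The summed level of the 29 genes ranged from 307 to 317 CPM in WT and from 318 to 355 CPM in KO, and without Fkbp5, left out after its values were seen, it ranged from 285 to 297 CPM in WT and from 294 to 335 CPM in KO, where the groups overlapped.

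Hspb1, a small heat shock protein, had 2.36, 1.88 and 3.07 CPM in WT and 3.37, 6.24 and 3.54 CPM in KO. Its highest value was in KO library 2, which added to the size of its log2 fold change (0.84, SE 0.247, edgeR adjusted p = 0.576). Stat3 had 48.5, 49.8 and 46.0 CPM in WT and 51.0, 52.7 and 54.6 CPM in KO (log2 fold change 0.13, SE 0.0540; edgeR adjusted p = 0.614). For both genes the KO libraries lay above the WT libraries. Vim, which encodes vimentin, the filament partner of GFAP, had 48.3, 46.7 and 42.1 CPM in WT and 44.5, 48.4 and 57.9 CPM in KO. Nes, which encodes the filament protein nestin, had 13.0, 14.7 and 17.5 CPM in WT and 14.4, 17.3 and 26.4 CPM in KO. Synm, which encodes the filament protein synemin, had 53.0, 47.2 and 54.2 CPM in WT and 54.9, 53.0 and 50.05 CPM in KO. Vim and Nes were highest in KO library 3, like Gfap, while Synm had its lowest KO value there, and all 3 overlapped between the groups. These 3 genes were named after their values were seen.

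KO library 3 was the highest of the 6 libraries for 13 of the 29 reactive genes, or 44.8%, where it was the highest for 18.7% of all genes tested. Among the members it was the highest for 4 of 10. This way of counting was chosen after the Gfap value of that library was known. The same library was also the highest for 8 of 13 microglia markers and 6 of 14 markers of vascular cells. The microglia markers summed to 261, 327 and 291 CPM in WT and to 263, 257 and 321 CPM in KO. Those of vascular cells summed to 492, 505 and 483 CPM in WT and to 485, 472 and 503 CPM in KO. In both sums KO library 3 was the highest of the KO libraries and lay below WT library 2. None of these markers was at 0. Their part in the values of the reactive genes was not tested.

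**Figure D5:**
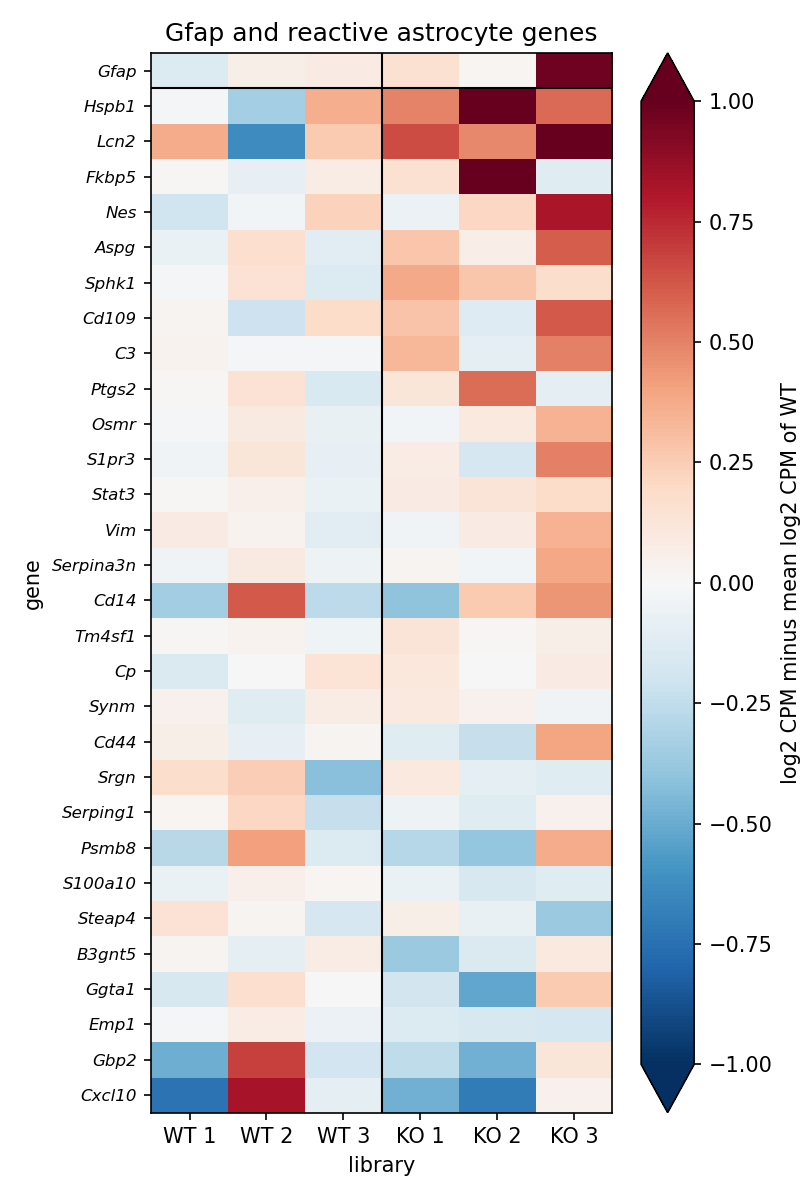
Log2 CPM of Gfap (top row) and of the 29 tested reactive astrocyte genes (rows, ordered by the mean of the KO libraries) in the 6 libraries (columns), as the difference from the mean of the WT libraries; red is higher and blue lower, and the colours end at 1 and -1. The column of KO library 3 holds the highest value for Gfap and for 13 of the 29 genes, and Fkbp5 and Hspb1 are highest in KO library 2.

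The genes most like Gfap were sought among 10163 other protein-coding genes with a mean of at least 10 CPM, by the smallest root mean square difference of centred log2 CPM over the 6 libraries. They were Slc6a13 (0.148), Nes (0.151) and Atf5 (0.173), where the median gene was at 0.368. Slc6a13, a GABA transporter that is prominent in the meninges, had 8.49, 9.54 and 11.7 CPM in WT and 9.44, 9.24 and 15.6 CPM in KO. Atf5, a stress-responsive transcription factor, had 7.997, 8.10 and 11.2 CPM in WT and 10.7, 10.5 and 21.7 CPM in KO. All 3 had, like Gfap, their highest value in KO library 3, which follows from choosing them by likeness to Gfap. With 6 points from 6 libraries the likeness is a description. Of the homeostatic members the nearest to Gfap was Sox9, at rank 304, and the farthest was S100b, at rank 9916.

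Partners of the glutamate transporters and Glul in the glutamate-glutamine cycle were counted next. Of 18 enzymes and transporters, all tested, 12 had higher and 6 lower means in KO, with a median log2 fold change of 0.073, and 0 passed the adjusted threshold in edgeR, while 2 had an unadjusted p-value under 0.05, beside 7.92% of all genes. The median was 0.047 without WT library 2 and 0.043 without KO library 2, and the unadjusted count was 1 without WT library 1 and 4, of which 1 was lower, without KO library 2. Without a filter on low counts 2 of the 18 passed the adjusted threshold, beside 0.8% of all genes. KO and WT libraries were fully separated for 7 of the 18 with higher and 1 with lower values in KO. Of all genes 7.46% were separated higher and 6.97% lower. Slc1a5, a neutral amino acid transporter of the same family as Slc1a2, had 2.23, 1.63 and 2.13 CPM in WT and 2.59, 2.88 and 6.11 CPM in KO (log2 fold change 0.95, SE 0.296; edgeR adjusted p = 0.576). Its size rested largely on KO library 3. Gpt2, a mitochondrial alanine aminotransferase, had 46.4, 43.1 and 46.1 CPM in WT and 48.5, 69.6 and 47.9 CPM in KO (log2 fold change 0.29, SE 0.119; edgeR adjusted p = 0.614). As for Glul, the highest value of Gpt2 was in KO library 2, and the size of the Gpt2 fold change rested largely on that library.

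Partners of Aqp4 and Gja1 included the dystrophin complex that anchors the water channel at the endfeet. Of 17 such genes, 4 of which also belong to the wider astrocyte set, 10 had higher and 7 lower means in KO, with a median log2 fold change of 0.059 that was -0.0081 without KO library 2 and 0.038 without KO library 3. In edgeR 0 passed the adjusted threshold and 3 had an unadjusted p-value under 0.05, beside 7.92% of all genes. That count was 5 without KO library 3. Without WT library 1, WT library 3 or KO library 1 there were 1 higher and 1 lower. Without a filter on low counts 1 of the 17 passed the adjusted threshold, beside 0.8% of all genes. Dmd, which encodes dystrophin, had 206, 222 and 221 CPM in WT and 199, 199 and 194 CPM in KO, below WT in all 3 libraries as for Aqp4 (log2 fold change -0.13, SE 0.0443; edgeR adjusted p = 0.579). Lamb2, a laminin chain of the vascular basement membrane, had 36.9, 35.5 and 36.0 CPM in WT and 40.6, 41.1 and 39.4 CPM in KO (log2 fold change 0.16, SE 0.0521; edgeR adjusted p = 0.576). Hepacam, an adhesion protein of astrocytes, had 84.6, 88.4 and 81.6 CPM in WT and 93.9, 93.8 and 89.5 CPM in KO (log2 fold change 0.12, SE 0.0491; edgeR adjusted p = 0.606).

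Markers of other cells that make some of the members were read beside them. Choroid plexus and ependyma share Sox9 with astrocytes. Of 12 markers of these tissues 10 had higher means in KO, beside 50.1% of all genes, and 4 of them had an unadjusted p-value under 0.05, beside 4.54% of all genes. In edgeR 0 passed the adjusted threshold. With the DESeq2 Wald test 1 did and with edgeR without a filter on low counts 1 did, beside 0.122% and 0.8% of all genes. The 0.122% again includes any genes without an adjusted p-value. The unadjusted count was 2 without KO library 2 and 5 without KO library 3. Their summed level ranged from 331 to 389 CPM in WT and from 395 to 468 CPM in KO, and none was at 0. Ttr, the transthyretin made by the choroid plexus, had 317, 263 and 300 CPM in WT and 384, 372 and 320 CPM in KO. In KO library 2 these markers summed to 457 CPM, and Sox9 had its lowest value there. Their part in the Sox9 values was not tested. Of 11 markers of Bergmann glia and other cerebellar cells, which bear on Slc1a3 and Aldoc, 8 had higher means in KO, with a median log2 fold change of 0.015 and 0 genes with an unadjusted p-value under 0.05. The split turned to 3 higher and 8 lower without WT library 2, with a median of -0.015, and without KO library 3, with a median of -0.050, and the median was 0.11 without WT library 1, 0.080 without KO library 1 and 0.00092 without WT library 3. Their sums of 961 to 1138 CPM in WT and 936 to 1100 CPM in KO overlapped. Of 15 neuron markers 5 had higher and 10 lower means in KO, with a median log2 fold change of -0.016, and without KO library 3 the split turned to 10 higher and 5 lower, with a median of 0.0077. The median was -0.036 without WT library 1, and it was nearer to 0 without WT library 2 (-0.00035) or WT library 3 (-0.0011) and farther from it without KO library 1 (-0.027).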

How the data were processed

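Long RNA of whole mouse brain was sequenced in 3 WT and 3 TRMT1L KO libraries from total RNA selected for molecules over 200 bp. The authors deposited raw read counts per gene, 1 table per library, in the layout of STAR gene counts. cutadapt 1.9.1 and STAR 2.7.0f are named in the submitters' processing notes. The genome build and annotation are not given in the sources used here; the 55450 gene IDs equal those of GENCODE M21 (GRCm38), which gave names, positions and lengths. The column of the strand opposite to the first read was used, since it held at least 94.6% of the stranded counts in every library. The first 4 rows name no gene and were left out; they held between 57.7% and 60.2% of reads (unmapped, mapping to several places, in no gene or in several genes).

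Genes were filtered with edgeR 4.0.16 (filterByExpr), scaled with TMM factors and tested with its quasi-likelihood test, all 6 libraries and genotype alone, in R 4.3.3. The Benjamini-Hochberg adjustment covered 21237 genes. The standard error is the log2 fold change divided by the square root of the F statistic, and 95% intervals are unadjusted. As alternatives, each library was left out in turn, counts were taken without regard to strand, scaling used total counts or the size factors of DESeq2, the filter was dropped or set to a mean count of 50, and the replicate number was added as a block. Protein-coding genes were also fitted alone, and DESeq2 1.42.0 (Wald) and voom of limma 3.58.1 replaced the test. The script was checked on simulated data. Chi-square values per degree of freedom between replicates lay from 4.40 to 9.50, so none was a repeat.

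The members and gene lists were chosen with earlier results of these data known. Named were all members, Trmt1l, up to 4 genes per other list with an unadjusted p-value under 0.05 and no overlap (the 2 most abundant where none qualified) and the 3 genes most like Gfap; other genes were named after their values were seen. The result for 1 single gene that the rule names is not reported here. Promoters are from RefSeq.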

Additional observations from a re-analysis of the deposited data

How the results depend on the processing

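Over 15 alternatives, 6 of the 10 members kept the sign of their log2 fold change, and the 9 members other than Gfap had no adjusted p-value under 0.05. Sox9 had none at all with the DESeq2 Wald test. Without a filter on low counts, 1 member passed, Gfap, at 0.45 with an edgeR adjusted p-value of 1.13e-14. Its adjusted p-values ranged up to 0.861 over the alternatives. The SE of Gfap was 0.0524 without the filter, against 0.191 in the main fit. Without the filter the number of all genes past the threshold was 298 in place of 2, and the cause was not tested. The number of all genes past the threshold was 26 with the DESeq2 Wald test and 4 with the replicate block. It was 1 among protein-coding genes alone, and 2 to 5 when 1 library was left out. No member passed in the fits that left out 1 library (0 to 0), nor with the replicate block. The deviations of same-numbered libraries correlated at 0.040, -0.031 and -0.058, which does not show the numbers to pair animals.

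Signs turned for 4 genes with fold changes near 0. With 1 library left out, Slc1a3 ranged up to 0.055, Gja1 down to -0.076, Glul up to 0.13 and Sox9 down to -0.19. Slc1a3 was at -0.0086 with total counts, -0.0034 with a mean count of at least 50, -0.00044 with limma-voom, -0.00016 with the replicate block, -0.0091 among protein-coding genes, -0.014 without WT library 2, -0.018 without KO library 2 and -0.034 without KO library 3. Gja1 was at 0.0019 without WT library 3 and 0.016 without KO library 3. Glul was at -0.014 without KO library 2. Sox9 was at 0.044 without WT library 3 and 0.19 without KO library 2. The log2 ratio of Gfap to Aldh1l1 ranged from -0.071, without KO library 3, to 0.39, without KO library 2, and with same-numbered libraries paired (replicate block) it was 0.20 (exact permutation test, p = 0.5). With the longest transcript as length, 6 of 10 members kept their rank. Counts and medians of the other lists were also followed over all alternatives, a choice made after seeing the data. Without a filter on low counts 1 of 13 microglia markers passed, and 0 of the neuron, precursor, vascular and cerebellar markers did. Precision was limited by the spread between libraries, with a median standard error of 0.0623 for genes of at least 10 CPM.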

Other observations

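Markers of oligodendrocyte precursors and red blood cells had positive fold changes without passing the adjusted threshold in edgeR, though without a filter on low counts 4 of 5 red blood cell markers passed, beside 0.8% of all genes. Of 8 precursor markers 7 had higher means in KO, with a median log2 fold change of 0.054. It was 0.026 without WT library 1, 0.027 without WT library 2, 0.033 without KO library 3, 0.086 without WT library 3 and 0.087 without KO library 2, and without KO library 1 the split was 4 and 4. Matn4, an extracellular matrix protein, had KO libraries that all lay above WT (log2 fold change 0.26, edgeR adjusted p = 0.618). All 5 red blood cell markers were highest in KO library 1 and had higher means in KO, with a median log2 fold change of 0.52. Without KO library 1 the split was 4 higher and 1 lower with a median of 0.15, and without KO library 2 the median was 0.80. Hba-a1, an alpha globin, had 38.3, 34.5 and 51.3 CPM in WT and 90.2, 36.1 and 66.3 CPM in KO.

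P2ry12, a purinergic receptor of resting microglia, had 26.2, 27.0 and 27.4 CPM in WT and 22.8, 19.0 and 21.9 CPM in KO (log2 fold change -0.34, SE 0.0741, edgeR adjusted p = 0.550). Of 13 microglia markers 8 had higher and 5 lower means in KO, with a median log2 fold change of 0.044, opposite in sign to P2ry12. P2ry12 alone of the 13 had an unadjusted p-value under 0.05 in edgeR, beside 7.92% of all genes. The split turned to 3 higher and 10 lower without WT library 1, with a median of -0.037 and 2 lower at that level, and without KO library 3, with a median of -0.115 and 4 lower. The median was 0.149 without WT library 2. Fkbp5, listed among the reactive genes and a target of the glucocorticoid receptor, had 21.8, 20.5 and 22.8 CPM in WT and 24.1, 46.3 and 20.003 CPM in KO, so that KO library 2 stood apart for it as it did for Glul, Gpt2 and Sox9.

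The remaining genes named by the rule had an edgeR adjusted p-value of 0.542 or more. Log2 fold changes were -0.40 for Ugt8a and -0.19 for Ermn of oligodendrocytes, 0.37 for Foxj1 of ciliated cells and 0.39 for Aqp1 of the choroid plexus. They were 0.11 for Slc12a5 and 0.093 for Eno2 of neurons, -0.080 for Rgs5 of pericytes and -0.012 for Flt1 of endothelium. Both neuron genes were higher, where 10 of the 15 neuron markers had lower means in KO. Both vascular genes were lower, where 8 of the 14 vascular markers had higher means. Without KO library 3 the vascular split turned to 5 higher and 9 lower. The cerebellar genes Car8 and Zic1 had -0.039 and 0.015, and Hbb-bs, a beta globin, had 0.40. Of the 11 cerebellar markers 8 had higher means in KO, opposite in sign to Car8.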
